A study of Mus musculus with 12 samples.

Results

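The genes described here are 34 genes of neutrophils, the granulocytes that enter a wound early and attack bacteria. They cover 8 granule genes that are expressed mainly by immature cells, 3 secreted proteins and 13 surface receptors of mature cells, 9 cytosolic and nuclear proteins, and Csf3, the growth factor that drives neutrophil production. The genes were chosen by symbol from the table of day 3 wounds, and all 34 were found among its 29956 named genes. RNA was sequenced from back skin of diabetic mice collected on day 3 after full-thickness punch wounding, with 4 mice per group. All 12 mice carried the genotype B6.BKS(D)-Leprdb/db, so they lacked a working leptin receptor, and no group without that mutation or without a wound was analysed here. The vehicle group received phosphate-buffered saline with glycerol on the wound. The A. faecalis group received Alcaligenes faecalis, a Gram-negative bacterium, and the S. aureus group received Staphylococcus aureus, a Gram-positive pathogen of skin, each in phosphate-buffered saline. The labels used here name no strain of either bacterium and no age or sex of the mice. The titles of the S. aureus libraries start with ARM and their descriptions with SA, without explanation. Their group was taken from the treatment label.

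Neutrophils are made in the bone marrow and load their granules in a fixed order. Promyelocytes make the proteases and the peroxidase of the primary granules, later stages make the antimicrobial proteins of the secondary granules, and the transcripts of both are largely lost as the cells mature. Mature neutrophils follow chemoattractants out of the blood, sense bacterial peptides through formyl peptide receptors and hold large stores of the calcium-binding proteins S100a8 and S100a9. Several of the 34 genes are also expressed elsewhere: Csf3r, Fpr1, Fpr2, Ptafr and Hcar2 by monocytes and macrophages, S100a8, S100a9, the stefin genes and Asprv1 by keratinocytes, and Lrg1 by endothelial cells.

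Levels are given as CPM, the estimated counts per M (mega) of the library after TMM scaling (trimmed mean of M-values), and the 4 values of a group are listed in the order of replicates 1 to 4. A level is compared between libraries for the same gene and not between genes, since CPM is not divided by transcript length. A gene was called higher or lower when its adjusted p from edgeR's quasi-likelihood test, over all 18218 genes that passed a filter on low counts, was under 0.05. All 34 neutrophil genes passed the filter. The p-values measure the spread between these 12 libraries, each read as 1 mouse. In whole skin, fewer neutrophils and less RNA per neutrophil cannot be told apart.

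Libraries held 38.4 to 71.3 M estimated counts. Vehicle replicate 3 stood apart from the other vehicle libraries. It had the lowest level of the 12 libraries for 24 of the 34 genes, and its summed adipocyte markers (6 genes) were the highest of the vehicle group, whose libraries ran from 1909 to 7671 CPM. The counts of calls against vehicle, and the values of some single genes, are therefore also given without that library. The 34 genes together took 0.225% to 1.18% of a vehicle library, 0.361% to 0.672% of an A. faecalis library and 1.25% to 1.78% of an S. aureus library.

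Sequence before the start of the genes was looked up in RefSeq's mouse promoters (build GRCm38.p6, another build than the GRCm39 in the submitters' processing notes), and 30 of the 34 genes had an entry. The secondary granule genes are known targets of the C/EBP family of transcription factors, so the 250 bases before each start were searched on both strands for the C/EBP-like letters TTNNGNAA. These letters occurred in 16 of the 30 genes, and in 36.9% of all 32841 windows of the same length, so they are common. Of the granule genes, Ngp had 3 matches, Ltf 2 and Chil5 1, while Camp, Ceacam10, Elane, Mpo and Prtn3 had none. All of the windows printed below hold a match. The letters GAGGAAGT, which the myeloid factor PU.1 can bind, occurred in 5 of the 30 genes and in 2.44% of all windows; 3 of the 5 were the primary granule genes Elane, Mpo and Prtn3. The STAT-like letters TTCNNNGAA were found in 2 of the 30 genes and in 7.02% of all windows. A match describes the letters and is not evidence of binding. Printed here are 2 secondary granule genes, Ngp and Ltf, the surface gene Cd177, called in both comparisons of S. aureus, and the surface gene Fpr1, called in none; C/EBP-like letters are in capitals on the gene's strand.
Ngp, chr9:110419558-110419807, plus strand: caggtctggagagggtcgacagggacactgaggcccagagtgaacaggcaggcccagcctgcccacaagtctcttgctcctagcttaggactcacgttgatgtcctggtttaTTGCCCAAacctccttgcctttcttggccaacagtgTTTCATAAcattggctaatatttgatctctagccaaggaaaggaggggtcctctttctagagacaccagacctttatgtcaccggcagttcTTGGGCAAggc
Ltf, chr9:111019042-111019291, plus strand: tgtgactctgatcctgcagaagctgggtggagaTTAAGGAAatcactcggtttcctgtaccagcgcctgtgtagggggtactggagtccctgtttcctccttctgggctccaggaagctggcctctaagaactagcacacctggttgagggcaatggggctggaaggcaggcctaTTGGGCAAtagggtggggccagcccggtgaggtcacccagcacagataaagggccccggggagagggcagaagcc
Cd177, chr7:24760312-24760561, minus strand: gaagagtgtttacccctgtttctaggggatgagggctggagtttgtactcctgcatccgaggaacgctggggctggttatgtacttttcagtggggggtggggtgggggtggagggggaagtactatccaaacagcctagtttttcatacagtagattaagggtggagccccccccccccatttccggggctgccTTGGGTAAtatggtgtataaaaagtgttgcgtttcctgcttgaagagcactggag
Fpr1, chr17:17883940-17884189, minus strand: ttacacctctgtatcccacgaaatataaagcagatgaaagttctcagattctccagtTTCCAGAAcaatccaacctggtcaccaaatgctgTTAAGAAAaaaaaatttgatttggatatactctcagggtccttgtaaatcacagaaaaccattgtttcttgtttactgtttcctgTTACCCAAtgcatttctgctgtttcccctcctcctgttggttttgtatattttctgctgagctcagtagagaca

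The 3 comparisons share libraries, so each is given with its own values. Wounds given A. faecalis were compared with vehicle wounds to see what this bacterium changed. No neutrophil gene was called, where edgeR called 0.011% of all genes tested (0.00549% higher and 0.00549% lower). The log2 fold change was above 0 in 16 of the 34 genes, as in 43.8% of all genes, with a median of -0.07 beside -0.03 for all genes. At an unadjusted p under 0.05 stood 5 genes (Camp higher; Retnlg, Ly6g, Chil5 and Cd177 lower), where 7.68% of all genes did. DESeq2 and limma-voom each called 0 of the 34, while DESeq2 called 40 of all 18218 genes higher and 80 lower, and limma-voom 1 and 1. The A. faecalis and vehicle libraries overlapped in all 34 genes, while 1.49% of all genes had no overlap on the higher side and 2.56% on the lower. The count was 0 without vehicle replicate 3 too.

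Most neutrophil genes had a higher mean level in S. aureus wounds than in vehicle wounds, and a small number of them passed the test. The log2 fold change was above 0 in 32 of the 34 genes, as in 45.3% of all genes, with a median of 1.20 beside -0.04 for all genes, and Trem3 and Ptafr were the exceptions. The call was reached by 6 genes, all higher: the granule genes Camp, Chil5 and Ceacam10, the secreted Lrg1, the surface gene Cd177 and the nuclear enzyme Padi4. Among all genes 3.87% were called higher, 2.97% lower and 6.84% in either direction. An unadjusted p under 0.05 was reached by 21 of the 34 genes and by 27% of all genes. In 14 of the 34 genes every S. aureus library lay above every vehicle library, which was so for 7.56% of all genes, and in none did they all lie below, which was so for 7.57%. The median was 2.33 over the 8 immature granule genes, 1.71 over the 3 secreted proteins, 0.89 over the 13 surface receptors and 1.24 over the 9 cytosolic and nuclear proteins. The count of calls rested on single libraries, and the count over all genes, 705 higher in the main fit, changed with them too. For the neutrophil genes it was 17 without vehicle replicate 4, 4 without vehicle replicate 3 (Camp and Padi4 lost) and 3 without vehicle replicate 1. It was 1 without S. aureus replicate 4 and 0 without S. aureus replicate 2 or 3. In these fits, in the same order, 994, 556, 423, 265, 294 and 170 of all genes were called higher. DESeq2 called 17 of the 34 genes and limma-voom 12, beside 1561 and 804 of all 18218 genes called higher. The median over the 34 genes was 0.94 without vehicle replicate 3.

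Between the wounds given bacteria, the mean level was higher with S. aureus in 28 of the 34 genes, where 47.3% of all genes had a log2 fold change above 0, with a median log2 fold change of 1.14 beside -0.02 for all genes. The test called 15 genes higher, where 7.62% of all genes were, and 1 lower, Ptafr, where 5.06% of all genes were; 12.7% were called in either direction. An unadjusted p under 0.05 was reached by 20 of the 34 genes and by 28.2% of all genes. Called higher were 3 of the 8 immature granule genes, 2 of the 3 secreted proteins, 3 of the 13 surface receptors and 7 of the 9 cytosolic and nuclear proteins. The groups did not overlap in 18 of the 34 genes, all higher with S. aureus, against 11.8% of all genes on the higher side and 11.5% on the lower. In all 12 fits that left out a library, 7 genes were called: Chil5, Ceacam10, Retnlg, Lrg1, Ly6g, Cd177 and Slfn4. The count of calls fell from 16 to 8 without A. faecalis replicate 3 and to 10 without A. faecalis replicate 2 or S. aureus replicate 4. Calls over all genes fell too, from 1388 higher and 922 lower in the main fit. In these fits, in the same order, they were 829 and 508, 875 and 548, and 997 and 513.

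**Figure D1:**
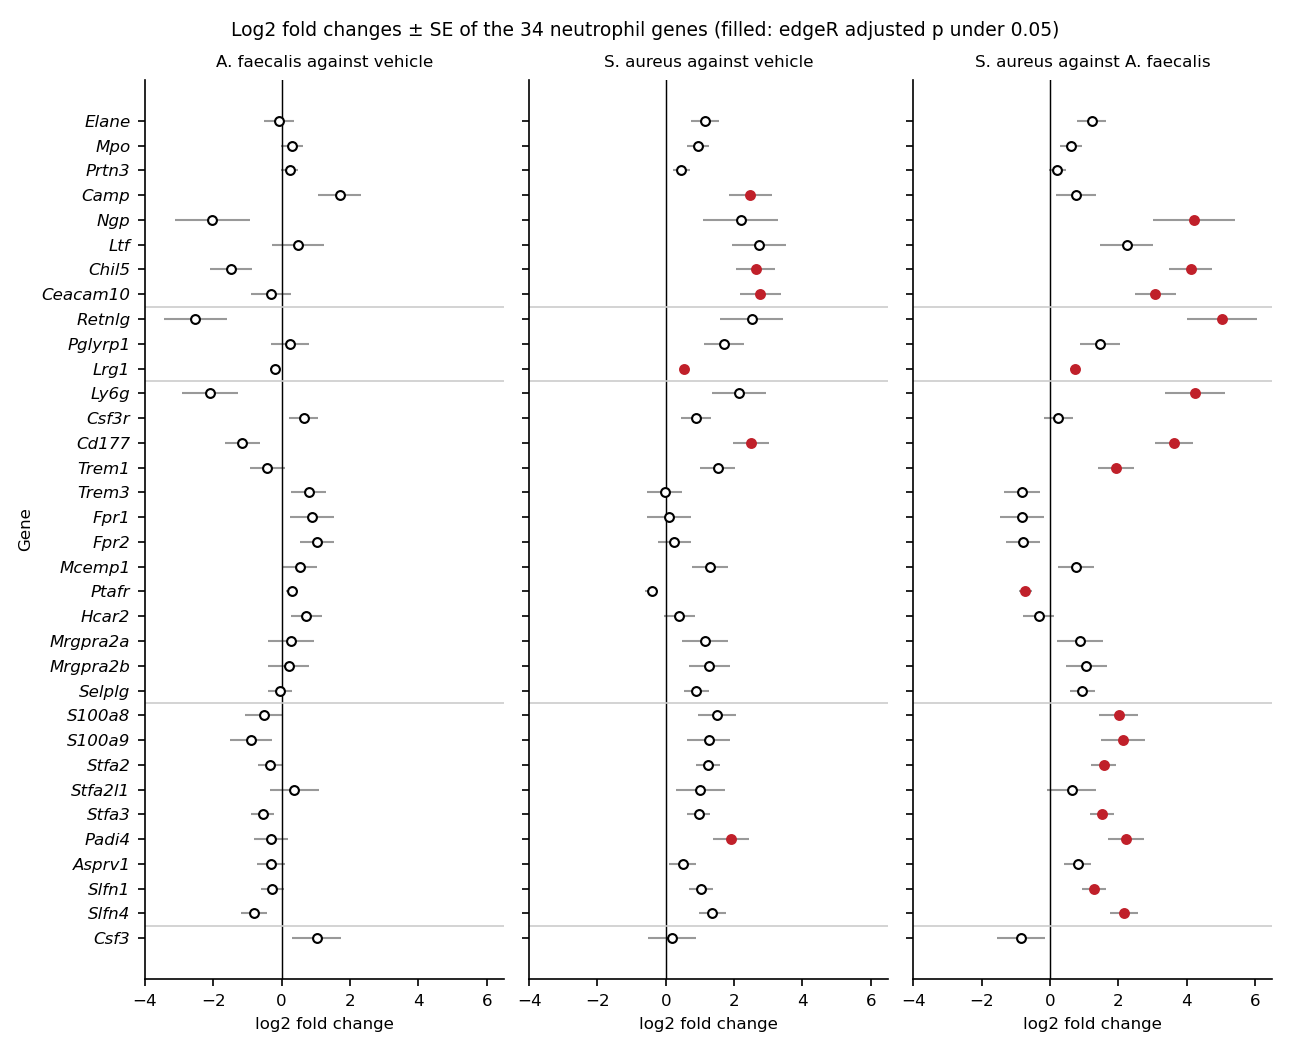
Log2 fold change of each of the 34 neutrophil genes in the 3 comparisons (points, with bars of 1 SE, 4 libraries per group, which the comparisons share). Filled points passed the edgeR test: none for A. faecalis against vehicle, 6 for S. aureus against vehicle and 16 for S. aureus against A. faecalis, of which Ptafr was lower.

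The primary granule genes of promyelocytes were at low levels in all groups. Elane, neutrophil elastase, stood at 0.104, 0.192, 0.221 and 0.0729 CPM with vehicle, 0.135, 0.115, 0.127 and 0.19 CPM with A. faecalis and 0.183, 0.536, 0.33 and 0.247 CPM with S. aureus. These levels rest on 4 to 31 estimated counts per library. Its log2 fold change between S. aureus and A. faecalis was 1.23 (SE 0.42, edgeR adjusted p = 0.0752), and the groups overlapped. Mpo, myeloperoxidase, ran from 0.789 to 1.6 CPM with vehicle, 1.06 to 1.9 CPM with A. faecalis and 1.36 to 3.08 CPM with S. aureus, and was not called (S. aureus against vehicle 0.94, SE 0.32, edgeR adjusted p = 0.0888). Prtn3, proteinase 3, ran from 1.33 to 2.95 CPM with vehicle, 1.91 to 2.89 CPM with A. faecalis and 2.03 to 3.03 CPM with S. aureus. It had the smallest differences of the 8 granule genes between S. aureus and either other group, 0.46 against vehicle and 0.21 against A. faecalis.

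Secondary granule genes came next. Camp, the cathelicidin antimicrobial peptide, was at 0.312, 0.709, 0.0947 and 0.528 CPM with vehicle, 0.507, 2.05, 0.998 and 1.75 CPM with A. faecalis and 1.31, 4.63, 1.25 and 1.82 CPM with S. aureus. Every S. aureus library lay above every vehicle library, with S. aureus replicate 2 far above the rest, while A. faecalis and S. aureus overlapped. Camp rose with S. aureus over vehicle by a log2 fold change of 2.47 (SE 0.63, edgeR adjusted p = 0.0407), a call that 7 of the 12 fits without a library did not make, among them the fit without vehicle replicate 3 (2.15, edgeR adjusted p = 0.0622). Its difference between S. aureus and A. faecalis was 0.77 (SE 0.58, edgeR adjusted p = 0.42). Camp also had the largest positive log2 fold change of the 34 genes between A. faecalis and vehicle, 1.70 (SE 0.63), which did not pass the test (edgeR adjusted p = 0.587).

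Ngp, neutrophilic granule protein, was at 4.03, 29.8, 0.394 and 109.8 CPM with vehicle, 4.01, 11.8, 4.18 and 15.5 CPM with A. faecalis and 108.5, 269.9, 161.6 and 117.7 CPM with S. aureus. The vehicle libraries spread over a 278-fold range, the widest of any of the 34 genes, and vehicle replicate 4 reached the lowest S. aureus library. Ngp rose with S. aureus over A. faecalis by 4.22 (SE 1.20, edgeR adjusted p = 0.0405), and the call was made in 3 of the 12 fits without a library. Against vehicle its log2 fold change of 2.19 (SE 1.10) did not pass (edgeR adjusted p = 0.223), and without vehicle replicate 4 it did (3.87). Ltf, the iron-binding lactoferrin, was at 1.72, 4.71, 0.552 and 7.23 CPM with vehicle, 1.89, 6.86, 1.93 and 9.11 CPM with A. faecalis and 14.0, 51.9, 14.99 and 12.5 CPM with S. aureus. All S. aureus libraries were above all others, and S. aureus replicate 2 was far above the other 3 of its group. Ltf was not called against vehicle (2.72, SE 0.80, edgeR adjusted p = 0.0606) or against A. faecalis (2.25, SE 0.78, edgeR adjusted p = 0.0808). It was called against vehicle without vehicle replicate 4 and against A. faecalis without vehicle replicate 3.

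Chil5 and Ceacam10 were called in both comparisons of S. aureus. Chil5, a chitinase-like protein, was at 0.208, 2.03, 0.347 and 1.55 CPM with vehicle, 0.406, 0.345, 0.19 and 0.546 CPM with A. faecalis and 5.88, 6.89, 7.24 and 5.56 CPM with S. aureus. The 4 S. aureus libraries lay close together and above the other 8. Chil5 rose by 2.64 over vehicle (SE 0.57, edgeR adjusted p = 0.0241) and by 4.12 over A. faecalis (SE 0.62, edgeR adjusted p = 0.00251). Ceacam10, a secreted member of the carcinoembryonic antigen family, was at 0.278, 1.17, 0.173 and 1.6 CPM with vehicle, 0.304, 1.09, 0.523 and 0.64 CPM with A. faecalis and 4.83, 7.12, 5.05 and 4.79 CPM with S. aureus. Its S. aureus libraries were also above the other 8. Ceacam10 rose by 2.77 over vehicle (SE 0.59, edgeR adjusted p = 0.0241) and by 3.08 over A. faecalis (SE 0.60, edgeR adjusted p = 0.00778). For both genes the call against vehicle was lost without S. aureus replicate 2, 3 or 4.

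**Figure D2:**
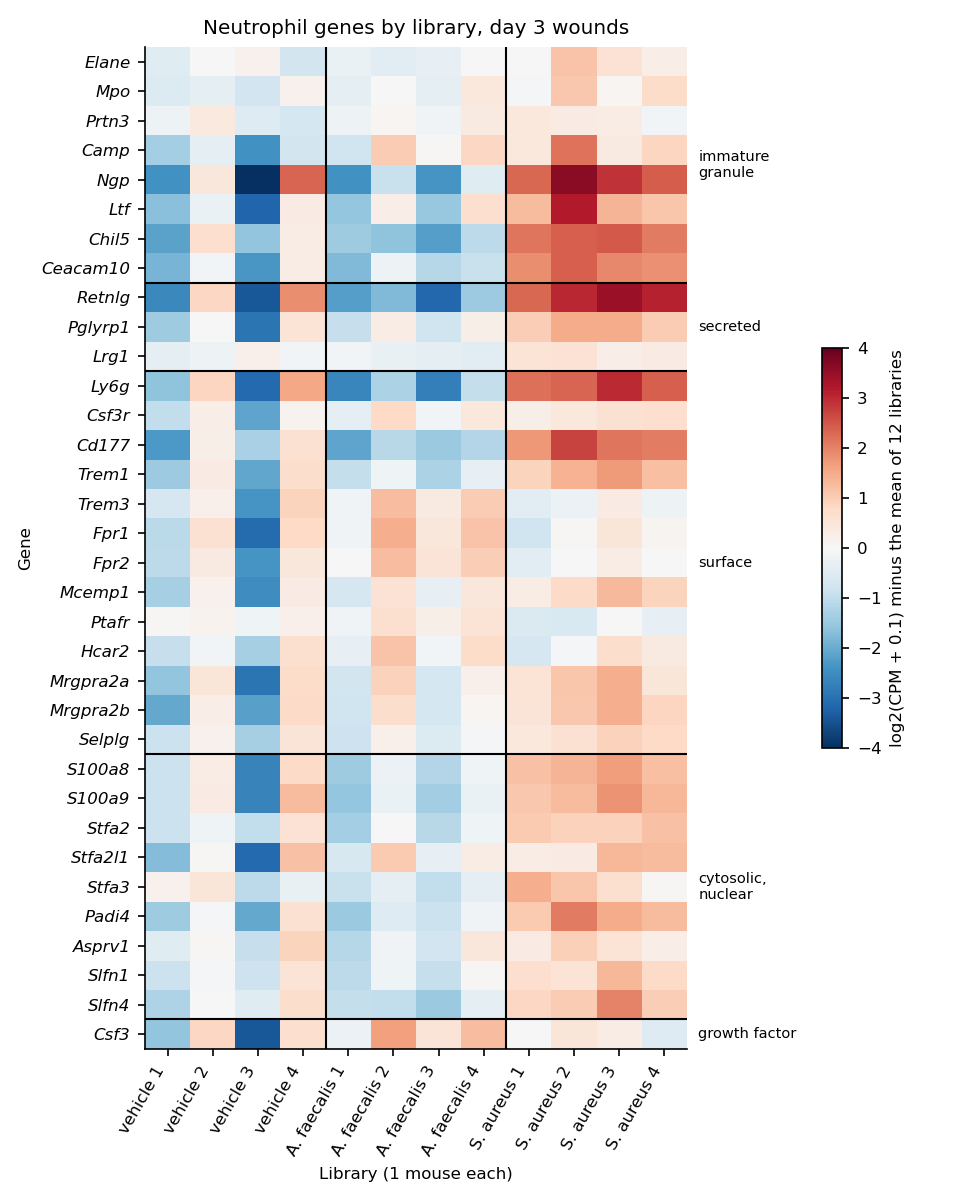
Level of each of the 34 neutrophil genes in the 12 libraries, as log2(CPM + 0.1) minus the gene's mean over the 12 libraries (red higher, blue lower; colours end at -4 and 4). Genes are grouped by role from top to bottom; the S. aureus columns are the reddest for most genes, and the vehicle replicate 3 column is the bluest.

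The secreted proteins of mature neutrophils included the gene with the largest difference of all 34. Retnlg, resistin-like gamma, was at 24.3, 262.8, 14.0 and 535.9 CPM with vehicle, 31.5, 43.6, 16.5 and 53.6 CPM with A. faecalis and 725.1, 1190, 1601 and 1251 CPM with S. aureus. All S. aureus libraries were above all others, and vehicle replicates 2 and 4 were above all A. faecalis libraries while vehicle replicates 1 and 3 were not. Retnlg rose by 5.04 over A. faecalis (SE 1.03, edgeR adjusted p = 0.00928), a 32.8-fold difference. Against vehicle its log2 fold change was 2.51 (SE 0.91, edgeR adjusted p = 0.106), and between A. faecalis and vehicle it was -2.53 (SE 0.91, edgeR adjusted p = 0.573; -2.91 without vehicle replicate 3, edgeR adjusted p = 0.357).

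Pglyrp1, which binds bacterial peptidoglycan, ran from 2.87 to 33.2 CPM with vehicle, 11.9 to 27.9 CPM with A. faecalis and 44.9 to 64.0 CPM with S. aureus. Its S. aureus libraries lay above the other 8, and it was not called against vehicle (1.71, SE 0.58, edgeR adjusted p = 0.0884) or against A. faecalis (1.47, SE 0.58, edgeR adjusted p = 0.118). Lrg1, a leucine-rich glycoprotein of neutrophil granules, was at 368.2, 411.2, 549.3 and 442.2 CPM with vehicle, 442.5, 388.4, 360.3 and 355.1 CPM with A. faecalis and 700.8, 713.1, 566.9 and 597.2 CPM with S. aureus. The S. aureus libraries were above the rest, with vehicle replicate 3 the nearest. Lrg1 had small differences and small errors: it rose by 0.54 over vehicle (SE 0.13, edgeR adjusted p = 0.0353) and by 0.74 over A. faecalis (SE 0.13, edgeR adjusted p = 0.00535). The call against vehicle was kept in 5 of the 12 fits without a library, and vehicle replicate 3 was not among the libraries it depended on (0.68 without it, edgeR adjusted p = 0.014). Endothelial markers (5 genes), whose cells also express Lrg1, summed to 719.5 to 1047 CPM with vehicle, 822.8 to 1138 CPM with A. faecalis and 1180 to 1381 CPM with S. aureus, and their part in the Lrg1 result was not tested.

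Of the 13 surface receptors, Cd177 was called higher with S. aureus against vehicle, and Ly6g, Cd177 and Trem1 were called higher and Ptafr lower against A. faecalis. Ly6g, the antigen that antibodies use to mark mouse neutrophils, was at 3.09, 17.8, 1.02 and 28.4 CPM with vehicle, 1.49, 4.0, 1.38 and 4.91 CPM with A. faecalis and 44.7, 48.5, 76.7 and 50.6 CPM with S. aureus. All S. aureus libraries were above all others. Ly6g rose by 4.24 over A. faecalis (SE 0.87, edgeR adjusted p = 0.0097), a 18.9-fold difference. Its log2 fold change was 2.14 against vehicle (SE 0.79, edgeR adjusted p = 0.11) and -2.10 between A. faecalis and vehicle (SE 0.81, edgeR adjusted p = 0.597). Cd177, a glycoprotein of the neutrophil surface, was at 5.52, 31.7, 11.1 and 41.6 CPM with vehicle, 6.19, 12.5, 9.68 and 12.1 CPM with A. faecalis and 91.1, 178.7, 121.7 and 111.8 CPM with S. aureus. The S. aureus libraries were above the other 8 here too. Cd177 rose by 2.49 over vehicle (SE 0.53, edgeR adjusted p = 0.0228; lost without S. aureus replicate 2 or 3) and by 3.64 over A. faecalis (SE 0.55, edgeR adjusted p = 0.00254).

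Trem1, an activating receptor that amplifies inflammatory signalling, was at 45.2, 156.3, 29.4 and 201.9 CPM with vehicle, 63.2, 110.6, 51.2 and 98.2 CPM with A. faecalis and 227.6, 321.9, 401.5 and 285.3 CPM with S. aureus. The S. aureus libraries lay above the rest, with vehicle replicate 4 the nearest. Trem1 rose by 1.94 over A. faecalis (SE 0.53, edgeR adjusted p = 0.0338), a call made in 5 of the 12 fits without a library, and its difference from vehicle of 1.51 (SE 0.52) did not pass (edgeR adjusted p = 0.0922). Selplg, the ligand of the selectins, ran from 51.5 to 186.3 CPM with vehicle, 73.4 to 148.6 CPM with A. faecalis and 173.9 to 247.4 CPM with S. aureus. It did not overlap between S. aureus and A. faecalis (0.95, SE 0.36) but was not called (edgeR adjusted p = 0.105). Mcemp1, a membrane protein of granulocytes and mast cells, had log2 fold changes of 1.30 (SE 0.52) over vehicle and 0.77 (SE 0.52) over A. faecalis with S. aureus, neither called. The paralogous Mas-related receptors Mrgpra2a and Mrgpra2b were 1.15 and 1.27 above vehicle and 0.88 and 1.06 above A. faecalis, not called. They cannot be read apart, since 92.4% of the 31-base words of Mrgpra2a and 87.0% of those of Mrgpra2b occur in transcripts of other genes, mostly each other's.

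Among the receptors for growth factor and formyl peptides none was called. Csf3r, the receptor for the growth factor encoded by Csf3, was at 216.6, 506.7, 98.9 and 471.8 CPM with vehicle, 321.6, 732.0, 395.5 and 572.4 CPM with A. faecalis and 497.0, 563.3, 650.5 and 679.9 CPM with S. aureus. The groups overlapped throughout. Of its 31-base words 23.1% occur in other transcripts, chiefly of AC105061.2, so reads could have been split. How far this affects its level was not measured. Its log2 fold change was 0.24 between S. aureus and A. faecalis (SE 0.42, edgeR adjusted p = 0.75), 0.89 between S. aureus and vehicle (SE 0.43, edgeR adjusted p = 0.206) and 0.64 between A. faecalis and vehicle (SE 0.43, edgeR adjusted p = 0.721). Fpr1, a receptor for bacterial formyl peptides, was at 63.4, 201.1, 15.6 and 231.0 CPM with vehicle, 119.9, 361.8, 179.9 and 291.9 CPM with A. faecalis and 76.4, 138.1, 186.1 and 144.2 CPM with S. aureus. The highest levels were in A. faecalis replicates 2 and 4, and the groups overlapped. Its log2 fold change was -0.81 between S. aureus and A. faecalis (SE 0.64, edgeR adjusted p = 0.447) and 0.90 between A. faecalis and vehicle (SE 0.64, edgeR adjusted p = 0.735; 0.54 without vehicle replicate 3).

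Fpr2, its relative, ran from 27.4 to 194.8 CPM with vehicle, 143.7 to 336.0 CPM with A. faecalis and 102.8 to 174.8 CPM with S. aureus. It was 1.03 higher with A. faecalis than with vehicle (SE 0.50, edgeR adjusted p = 0.652) and -0.78 from A. faecalis to S. aureus (SE 0.49, edgeR adjusted p = 0.334). Of its 31-base words 43.0% occur in other transcripts, so reads could have been split. Ptafr, the receptor for the lipid mediator platelet-activating factor, was at 174.9, 186.4, 151.4 and 194.6 CPM with vehicle, 152.4, 267.2, 200.6 and 250.6 CPM with A. faecalis and 113.4, 110.9, 169.2 and 136.4 CPM with S. aureus. S. aureus replicates 1, 2 and 4 were below the other 9 libraries, and replicate 3 was not. Ptafr was lower with S. aureus than with A. faecalis (log2 fold change -0.72, SE 0.18, edgeR adjusted p = 0.0248), a call lost without A. faecalis replicate 2 or 4 or without S. aureus replicate 1, 2 or 4. Trem3, a relative of Trem1, and Hcar2, the receptor for hydroxybutyrate and niacin, were -0.82 (SE 0.53) and -0.32 (SE 0.45) from A. faecalis to S. aureus, neither called.

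The group means had their maximum with A. faecalis in 6 of the 34 genes, the surface genes Trem3, Fpr1, Fpr2, Ptafr and Hcar2 and the growth factor Csf3, and with S. aureus in the other 28. Ly6g and Csf3r, which both had their highest mean with S. aureus, were set side by side as a pair chosen after the values were seen. The ratio of Ly6g to Csf3r, in which transcript length is the same in all libraries but the shared words of Csf3r remain, was 0.0104 to 0.0603 with vehicle, 0.00348 to 0.00858 with A. faecalis and 0.0745 to 0.118 with S. aureus. These ranges do not overlap. For Retnlg and Fpr1, also chosen after the values were seen, the ratio was 0.384 to 2.32 with vehicle, 0.0916 to 0.263 with A. faecalis and 8.6 to 9.49 with S. aureus. The S. aureus ratios lay within a narrow range although the level of Fpr1 itself differed between those libraries. Other pairs formed after the values were seen did not separate vehicle from the other groups. Ngp over Camp was 4.17 to 207.9 with vehicle, 4.19 to 8.86 with A. faecalis and 58.3 to 129.8 with S. aureus. Ngp over Mpo was 0.5 to 68.5, 3.76 to 8.37 and 49.2 to 109.7 in the same order. No test was run on any of these ratios.

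**Figure D3:**
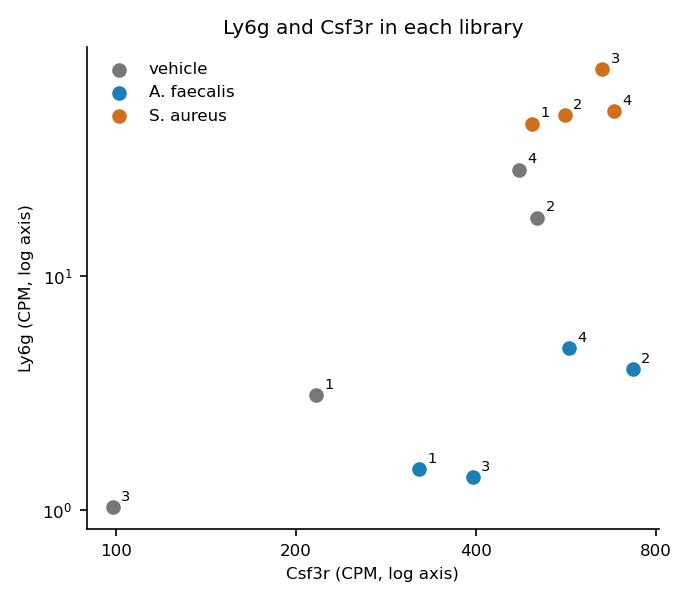
Ly6g against Csf3r in each of the 12 libraries, both in CPM on log axes, with replicate numbers beside the points. At Csf3r levels that overlap between groups, the 4 A. faecalis libraries lie at 1.38 to 4.91 CPM of Ly6g and the 4 S. aureus libraries at 44.7 to 76.7 CPM.

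Among cytosolic and nuclear proteins, the alarmins S100a8 and S100a9, subunits of calprotectin, together took 0.053% to 0.685% of a vehicle library, 0.127% to 0.287% of an A. faecalis library and 0.73% to 1.02% of an S. aureus library. S100a8 was at 855.7, 1916, 241.7 and 2659 CPM with vehicle, 581.2, 1319, 688.9 and 1389 CPM with A. faecalis and 3503, 4024, 4991 and 3606 CPM with S. aureus. S100a9 was at 990, 2263, 279.8 and 4346 CPM with vehicle, 609.3, 1479, 678.7 and 1482 CPM with A. faecalis and 3828, 4301, 6219 and 4476 CPM with S. aureus. All S. aureus libraries were above all A. faecalis libraries for both, while vehicle replicate 4 entered the S. aureus range for S100a9. Over A. faecalis, S100a8 rose by 2.02 (SE 0.57, edgeR adjusted p = 0.0388) and S100a9 by 2.15 (SE 0.64, edgeR adjusted p = 0.0486). Both calls were fragile, made in 4 and 2 of the 12 fits without a library. Against vehicle neither passed (1.51, edgeR adjusted p = 0.113, and 1.26, edgeR adjusted p = 0.222).

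The stefins, inhibitors of cysteine proteases, rose in part. Stfa2 was at 47.4, 76.3, 43.2 and 128.6 CPM with vehicle, 33.8, 84.5, 40.04 and 76.3 CPM with A. faecalis and 176.1, 162.1, 164.2 and 194.5 CPM with S. aureus. Its 4 S. aureus libraries were close to each other and above the other 8. Stfa2 rose by 1.57 over A. faecalis (SE 0.37, edgeR adjusted p = 0.0171), and Stfa3, at 215.8 CPM or more in S. aureus replicates 1 to 3 and 141.9 CPM in replicate 4, rose by 1.52 (SE 0.35, edgeR adjusted p = 0.0158). Stfa2l1 was not called (0.64, SE 0.71, edgeR adjusted p = 0.6). Stfa2 and Stfa2l1 share transcript sequence, 33.3% and 41.6% of their 31-base words occurring in other genes' transcripts, mostly each other's. Padi4, the nuclear enzyme that citrullinates histones when neutrophils release their chromatin, was at 3.56, 9.31, 2.24 and 14.7 CPM with vehicle, 3.35, 6.69, 5.21 and 8.73 CPM with A. faecalis and 20.1, 41.0, 27.4 and 23.5 CPM with S. aureus. Its S. aureus libraries lay above the other 8. Padi4 rose by 1.91 over vehicle (SE 0.52, edgeR adjusted p = 0.0475, in 2 of the 12 fits without a library) and by 2.23 over A. faecalis (SE 0.52, edgeR adjusted p = 0.0174). Over A. faecalis the calls of Stfa2, Stfa3 and Padi4 were lost without A. faecalis replicate 3.

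Slfn4, a schlafen gene of myeloid cells, was at 223.4, 530.3, 377.7 and 859.7 CPM with vehicle, 272.9, 269.5, 189.1 and 402.2 CPM with A. faecalis and 933.8, 1068, 2071 and 1053 CPM with S. aureus. All S. aureus libraries lay above all others, and replicate 3 was far above its group. Slfn4 rose by 2.18 over A. faecalis (SE 0.40, edgeR adjusted p = 0.00606), and its difference of 1.36 from vehicle (SE 0.39) did not pass (edgeR adjusted p = 0.058). Of its 31-base words 20.2% occur in other transcripts, chiefly of Slfn3. Slfn1 rose by 1.30 over A. faecalis (SE 0.35, edgeR adjusted p = 0.0326), a call made in 7 of the 12 fits without a library. Asprv1, an aspartic protease, was at 217.3, 336.2, 254.7 and 210.1 CPM with S. aureus and overlapped both other groups (0.81 over A. faecalis, SE 0.40, edgeR adjusted p = 0.216). Asprv1 is also a gene of the upper epidermis, whose 8 markers summed to 442.0 to 779.6 CPM with vehicle, 271.7 to 663.4 CPM with A. faecalis and 265.6 to 857.2 CPM with S. aureus; their part in its level was not tested.

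Csf3, the granulocyte colony-stimulating factor made by tissue cells and macrophages, was at 12.5, 67.2, 3.5 and 60.1 CPM with vehicle, 32.0, 117.1, 53.3 and 88.9 CPM with A. faecalis and 38.3, 52.9, 45.6 and 26.1 CPM with S. aureus. The highest 2 libraries were A. faecalis replicates 2 and 4, and the groups overlapped. Its log2 fold change was 1.03 between A. faecalis and vehicle (SE 0.71, edgeR adjusted p = 0.73; 0.65 without vehicle replicate 3), 0.19 between S. aureus and vehicle (SE 0.71, edgeR adjusted p = 0.893) and -0.84 between S. aureus and A. faecalis (SE 0.71, edgeR adjusted p = 0.474). Without vehicle replicate 3 the difference between S. aureus and vehicle was -0.18.

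**Figure D4:**
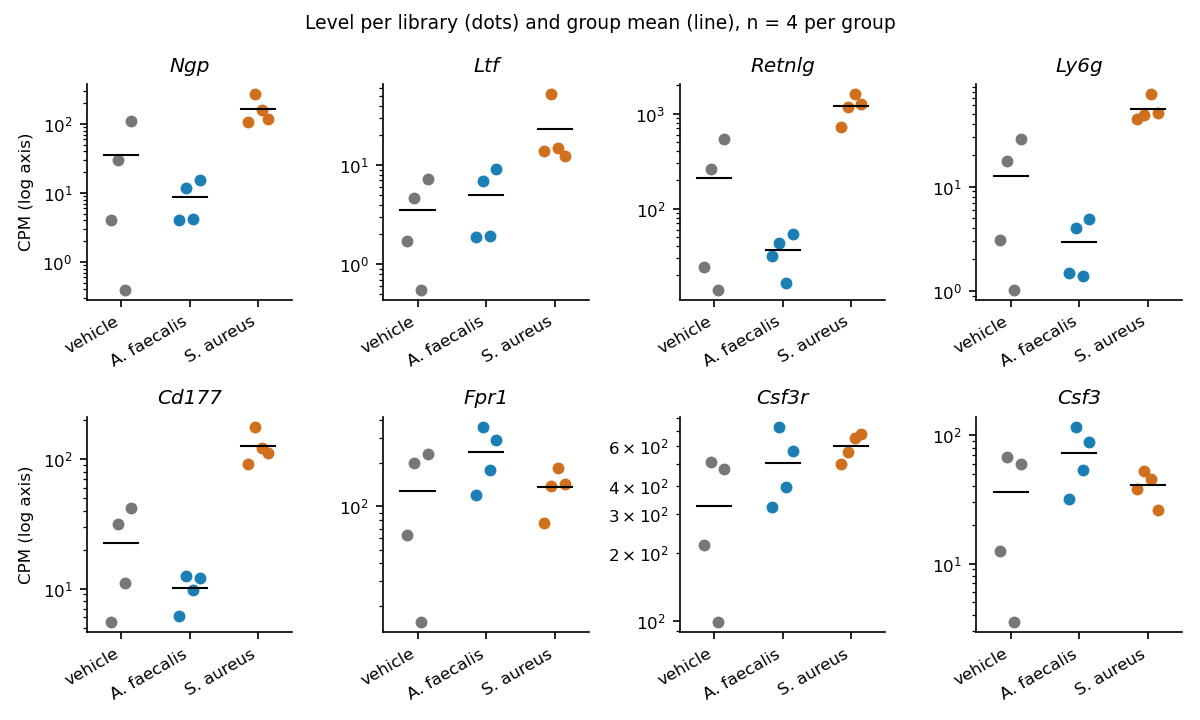
Level in CPM (log axes, a different range in each panel) of 8 neutrophil genes in each library (dots) with the group mean (line), 4 libraries per group. The S. aureus libraries stand above the A. faecalis libraries for Ngp, Ltf, Retnlg, Ly6g and Cd177, and the groups overlap for Fpr1, Csf3r and Csf3.

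The spread within a group was itself uneven. The highest library of a group was a median of 7.33 times the lowest over the 34 genes with vehicle, 2.47 times with A. faecalis and 1.83 times with S. aureus. In the vehicle group, replicates 1 and 3 were both below replicates 2 and 4 in 30 of the 34 genes, and the same held for A. faecalis replicates 1 and 3 against 2 and 4 in 30 of the 34. The exceptions were Elane, Prtn3, Stfa3 and Lrg1 with vehicle and Elane, Chil5, Lrg1 and Slfn4 with A. faecalis. Replicate numbers carry no stated link between groups. In the S. aureus group, replicate 2 had the highest level of the 12 libraries in 6 of the 8 immature granule genes, and replicate 3 in 6 of the 13 surface receptors and 5 of the 9 cytosolic and nuclear proteins. Taking each gene relative to its mean over the 12 libraries, the immature granule genes exceeded the 25 mature genes by 0.05 to 1.15 log2 units in the S. aureus libraries. The difference was -0.53 to -0.15 with vehicle and -0.34 to -0.03 with A. faecalis. Since each gene is centred, the differences cancel over the 12 libraries, so positive values in some force negative values in others. With S. aureus the mean score was 1.43 for the immature granule genes and 1.55 for the secreted proteins. It was 1.04 for the cytosolic and nuclear proteins and 0.72 for the surface receptors. These scores are a description with no test.

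Some other genes of neutrophil movement were higher with S. aureus. Of 20 recruitment genes, edgeR called 4 higher against vehicle, DESeq2 10 and limma-voom 7, with a list median of 0.86. Over all 18218 genes edgeR called 705 higher and 541 lower, DESeq2 1561 and 1315, and limma-voom 804 and 474. These counts are the background for the lists that follow too. Selp, the P-selectin on which leukocytes roll, was at 36.9 ± 10.0 CPM with vehicle, 39.2 ± 2.83 CPM with A. faecalis and 105.1 ± 17.9 CPM with S. aureus (mean ± SD, n = 4), a rise of 1.51 over vehicle (edgeR adjusted p = 0.00333) and 1.42 over A. faecalis (edgeR adjusted p = 0.00104). Sele, E-selectin, rose by 0.88 and 0.82 (edgeR adjusted p = 0.0162 and 0.00948). Its call against vehicle was lost in a fit of S. aureus and vehicle alone, where that of Selp was kept. The summed endothelial markers were also higher with S. aureus (1180 to 1381 CPM) than with vehicle (719.5 to 1047 CPM) or A. faecalis (822.8 to 1138 CPM). Their part in the rise of the selectins was not tested. Il17a, the cytokine that brings in neutrophils through tissue cells, had 26 estimated counts in the vehicle group, 2 in the A. faecalis group and 251 in the S. aureus group. Scaled for library size, S. aureus exceeded vehicle by 11.7 times (exact 95% interval 7.8 to 18.3, counting error only) and A. faecalis by 156.1 times (42.8 to 1296), and both differences were called (edgeR adjusted p = 0.0214, lost without S. aureus replicate 3, and 0.00212). The Il17a call against vehicle was also lost in a fit of S. aureus and vehicle alone. Against A. faecalis edgeR called 1388 of all genes higher and 922 lower, DESeq2 2065 and 1409, and limma-voom 1357 and 848. Of the 20 recruitment genes edgeR called 6 higher and 1 lower, DESeq2 10 and 1, and limma-voom 6 and 1, with a median of 0.82. Among these, and named after their values were seen, were the chemokine receptors Cxcr1 (2.73; lost without A. faecalis replicate 3) and Cxcr2 (1.73; called in 6 of the 12 fits without a library), higher, and the adhesion molecule Icam1 (-0.80), lower.

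Of 14 further granule proteins edgeR called none between S. aureus and vehicle, with 5 at an unadjusted p under 0.05 (27% of all genes). DESeq2 called 2 of them and limma-voom 0. Against A. faecalis, Fcnb (1.81, edgeR adjusted p = 0.0114) and Anxa1 (0.63, edgeR adjusted p = 0.00236) were higher and Cst7 (-0.68, edgeR adjusted p = 0.0326, called in 6 of the 12 fits without a library) lower. Fcnb encodes a ficolin of immature neutrophils and Anxa1 the pro-resolving protein annexin A1. Levels of Fcnb were low, 0.149 ± 0.0694 CPM with A. faecalis and 0.518 ± 0.0846 CPM with S. aureus (mean ± SD, n = 4). Of 6 NADPH oxidase genes edgeR, DESeq2 and limma-voom called none between S. aureus and vehicle (1 at an unadjusted p under 0.05), and Cybb, the catalytic subunit that macrophages share, was lower with S. aureus than with A. faecalis (-1.12, edgeR adjusted p = 0.0404; lost without any of 7 libraries). Among 8 regulators of granulopoiesis, of which DESeq2 called 4 higher with S. aureus against vehicle and 3 against A. faecalis, edgeR called 1 in each. Csf2 was higher with S. aureus than with vehicle (1.29, edgeR adjusted p = 0.048; called in 2 of the 12 fits without a library), and Cebpd was higher than with A. faecalis (0.61, edgeR adjusted p = 0.0472; lost under upper-quartile scaling and in 8 of the 12 fits without a library). Of 15 other mature neutrophil genes tested, edgeR called 2 higher against vehicle and 3 against A. faecalis, where DESeq2 called 5 higher, and 6 higher and 1 lower. Il1r2, the decoy receptor for interleukin-1, rose by 1.97 over vehicle (edgeR adjusted p = 0.0343, lost without vehicle replicate 1 or S. aureus replicate 2, 3 or 4) and 2.10 over A. faecalis (edgeR adjusted p = 0.0161, lost without A. faecalis replicate 3). Ifitm6 rose by 2.25 (edgeR adjusted p = 0.038, called in 5 of the 12 fits without a library) and 3.29 (edgeR adjusted p = 0.00524). The calls of Il1r2 and Ifitm6 against vehicle were also lost in a fit of S. aureus and vehicle alone. Hdc, the histamine-forming enzyme, rose by 2.34 over A. faecalis (edgeR adjusted p = 0.0216, lost without A. faecalis replicate 3 or 4 or S. aureus replicate 3). Between A. faecalis and vehicle, edgeR, DESeq2 and limma-voom called none of these genes in any of the 5 lists. At an unadjusted p under 0.05 were 0 to 3 genes per list, and 7.68% of all genes.

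Markers of other cells moved with the groups as well. The 13 monocyte and macrophage markers, none at 0 in any library, summed to 3260 to 5473 CPM with vehicle, 4875 to 5686 CPM with A. faecalis and 2747 to 3570 CPM with S. aureus. With S. aureus, edgeR called 8 of the 13 lower and none higher against A. faecalis, where 5.06% of all genes were called lower. Against vehicle it called 2 lower and none higher, where 2.97% of all genes were called lower. DESeq2 called 9 lower and 1 higher against A. faecalis, and 7 lower and 1 higher against vehicle. Among those lower was Adgre1, the F4/80 antigen (-1.43 and -1.08; edgeR adjusted p = 0.00359 and 0.0244, the latter lost without S. aureus replicate 2, 3 or 4). Ly6c2, a marker of inflammatory monocytes named after its values were seen, stood the other way, at 116.4 ± 47.7 CPM with S. aureus against 55.3 ± 19.8 CPM in vehicle wounds and 58.3 ± 19.5 CPM in A. faecalis wounds (mean ± SD, n = 4), a log2 fold change of 1.07 over vehicle (edgeR adjusted p = 0.0725). The A. faecalis group, with the highest median of these sums (5413 CPM, beside 4578 CPM with vehicle and 3128 CPM with S. aureus), was also the group with the highest means of Fpr1, Fpr2, Ptafr and Hcar2, which macrophages share. Csf3r, which they share too, had its highest mean with S. aureus (597.7 CPM, beside 505.4 CPM in A. faecalis wounds and 323.5 CPM in vehicle wounds). The part of macrophages in these levels was not tested. Markers of all leukocytes (4 genes) summed to 893.9 to 2222 CPM with vehicle, 1312 to 2065 CPM with A. faecalis and 1681 to 2483 CPM with S. aureus, and edgeR, DESeq2 and limma-voom called none in any comparison, with 0 at an unadjusted p under 0.05. Basal keratinocyte markers (7 genes) summed to 1209 to 1941, 720.1 to 1184 and 931.2 to 2376 CPM in the same order, and adipocyte markers to 1909 to 7671, 2037 to 3217 and 1325 to 2275 CPM. Erythroid markers (7 genes) summed to 53.2 to 84.5, 34.8 to 62.6 and 26.6 to 40.5 CPM in that order. Of the 7, edgeR called 3 lower with S. aureus than with vehicle, where 2.97% of all genes were called lower. Between A. faecalis and vehicle edgeR, DESeq2 and limma-voom called 0 of them. In that comparison 6 were at an unadjusted p under 0.05, where 7.68% of all genes were. Their part in the neutrophil results was not tested.

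The genes most like the surface receptors were found among 14843 genes with a mean of at least 1 CPM that were on none of the lists. Likeness was Pearson's correlation, over the 12 libraries, of a gene's log2 CPM with the mean of the 13 surface receptors, each relative to its own mean. The 10 most alike were Stx11 (0.99), Samsn1, Pde4b, Gpsm3, Jdp2, Nfkbiz, Capza1, I830077J02Rik, Ier3 and Cd300lf (0.98), and without vehicle replicate 3 the values for Stx11 and Cd300lf were 0.98 and 0.97. The 12 points share groups, and the large spread of the vehicle libraries enters each value.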

How the data were processed

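RNA-seq of 12 wound skin libraries was used. The deposited table holds estimated counts per gene symbol; the authors' processing notes name FastQC 0.12.1, kallisto 0.48.0, R 4.1.3, DESeq2 1.34.0 and GRCm39 without giving roles. The step from transcripts to genes and the use of strand are not given in the sources used. Kallisto divides reads between similar transcripts, so close paralogs are uncertain; shared 31-base words were counted in GENCODE M21 transcripts. An entry without a gene name (0.00909% to 0.0151% of a library) was left out. Estimated counts were rounded and tested with edgeR 4.0.16 in R 4.3.3 (TMM, filterByExpr with a minimum count of 10 and total of 15, robust quasi-likelihood F test, two-sided, 1 mean per group over all 12 libraries, Benjamini-Hochberg over 18218 genes). Log2 CPM used a prior count of 2. The test was tried on simulated counts with the same spread in all groups. In the data the spread differed between groups, which the simulation does not cover. No pair of replicates within a group agreed within sampling noise (chi-square per degree of freedom 28.0 to 459.6).

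All 34 neutrophil genes were named, called or not. From the other neutrophil lists, called genes were named, at most 4 per list by smallest adjusted p, plus the 10 genes most like the surface receptors. Of 138 symbols on the other lists 136 were found, 4 under older names; Lilrb4a was at 0 and not tested. Of the recruitment genes, 1 is counted in its list and not reported here by itself. The members and lists were chosen with earlier results of these data known, so a list's direction is no independent support. Alternatives were DESeq2 size factors, upper-quartile scaling, the DESeq2 1.42.0 Wald test, limma-voom (limma 3.58.1), no low-count filter, a minimum mean of 1 CPM, a fit with 2 groups, a block for the replicate number and fits without each library; for genes of the other lists they were added after the data were seen.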

Additional observations from a re-analysis of the deposited data

Results flagged for a closer look

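In 4 of 102 combinations of a neutrophil gene and a group, the highest library lay so far from the other 3 that the gap exceeded Dixon's 95% critical value for 4 samples; chance flags about 1 in 20 groups. All 4 were in the S. aureus group. S. aureus replicate 2 stood at 4.63 CPM for Camp, 51.9 CPM for Ltf and 7.12 CPM for Ceacam10, which are 3 of the 8 immature granule genes. S. aureus replicate 3 stood at 2071 CPM for Slfn4.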

How the results depend on the processing

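The count of neutrophil genes called between S. aureus and vehicle (6) was 17 with the DESeq2 Wald test and 12 with limma-voom. It was 0 in a fit of the 2 groups alone and ran from 0 to 17 with a library left out. Over all genes, 705 were called higher in the main fit, 1561 with DESeq2, 804 with limma-voom and 238 in the fit of 2 groups. With a library left out, 170 to 994 were. Between S. aureus and A. faecalis the count of neutrophil genes (16) ran from 8 to 19 with a library left out. Over all genes, 1388 were called higher in the main fit and 829 to 1867 with a library left out. With the replicate block the counts of neutrophil genes were 0, 8 and 18 for A. faecalis against vehicle, S. aureus against vehicle and S. aureus against A. faecalis. Lrg1 was not among the 8. Correlations of same-numbered libraries were 0.07 to 0.182, -0.21 to 0.0797 and -0.14 to 0.0244 in these comparisons. Not every library correlated best with its own number. Such correlations over 4 libraries per group cannot exclude a shared batch, so whether the numbers pair the samples is not known. Medians of the gene groups moved by less than the pooled SD, within groups, of the libraries' mean scores in all 243 alternative values, but not all kept their sign. With vehicle that SD was 1.2 log2 units over all 34 genes, so this limit is loose and passing it says little. For A. faecalis against vehicle, 2 medians turned positive without vehicle replicate 4. These were the medians over all 34 genes (-0.07 in the main fit) and over the cytosolic and nuclear proteins (-0.33). Among single genes, signs turned in those that were not called. For A. faecalis against vehicle, limma-voom gave Elane 0.0104, Ceacam10 0.13 and Selplg 0.0671, and the replicate block gave Selplg 0.0178; for S. aureus against vehicle Trem3 was 0.39 with limma-voom and 0.24 with the replicate block. With a library left out, log2 fold changes for A. faecalis against vehicle ran from -0.30 to 0.20 for Elane, -0.71 to 0.28 for Ceacam10, -0.10 to 0.83 for Pglyrp1, -0.73 to 0.0787 for Trem1, -0.17 to 0.80 for Mrgpra2a, -0.16 to 0.81 for Mrgpra2b, -0.29 to 0.29 for Selplg, -0.56 to 0.0795 for Stfa2, -0.0378 to 1.30 for Stfa2l1, -0.61 to 0.26 for Padi4, -0.67 to 0.14 for Asprv1 and -0.49 to 0.0939 for Slfn1. For S. aureus against vehicle they ran from -0.36 to 0.51 for Trem3, -0.26 to 0.56 for Fpr1, -0.0562 to 0.62 for Fpr2 and -0.18 to 0.70 for Csf3. The cause was not tested. For S. aureus against A. faecalis no neutrophil gene changed sign in 679 alternative values, of which 51 lost a call and 11 gained one. With 4 libraries per group and a median 7.33-fold range within vehicle, precision is limited, and Elane rests on few counts. The called genes Camp, Chil5 and Ceacam10 also had few estimated counts per vehicle library, 6 to 37, 12 to 106 and 11 to 88.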
